A study of Arabidopsis thaliana with 15 samples.

Results

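The genes described are CONSTANS (CO), its relatives COL1, COL2, COL5 and COL9, and the cycling Dof factor genes CDF1, CDF2, CDF3 and CDF5, which act in the measurement of day length in Arabidopsis thaliana. They were chosen as a list of locus IDs by their known role in the pathway, with earlier results of these data known, and are 9 of 33201 genes listed in the authors' comparison of syd-5 with wild type RNA. All 9 were among the 19868 genes that the authors tested. RNA came from whole 14-day-old seedlings grown on plates with 16 h of light and 8 h of dark, from Col-0 wild type (WT, 3 libraries) and from syd-5 in Col-0 (3 libraries). The mutant syd-5 affects SPLAYED (SYD), which encodes a SWI/SNF chromatin remodelling ATPase, and was the only mutant line with RNA data. The other 9 libraries of the series, for chromatin immunoprecipitation, were not analysed here.

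CO encodes a transcription factor with B-box zinc fingers and a CCT domain, which activates the flowering signal gene FT in phloem companion cells at the end of long days. CDF proteins are Dof-type DNA-binding repressors of CO and FT, and they are removed in the light by the F-box protein FKF1 with GIGANTEA (GI). The ubiquitin ligase of COP1 and the SPA proteins breaks down CO protein in the dark. Transcripts of many of these genes cycle over the day, and no source used here gives the hour of harvest.

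The table gave 1 value per gene and genotype. They were taken to be FPKM (fragments per kilobase of transcript, scaled to the library's total), which allows levels of different genes to be compared. No value per library was available, so that neither a standard deviation nor a sequencing depth can be set beside any value. The words rose, fell and called are used for genes with q at or under 0.05 in the authors' deposited table and for nothing else. Whether the libraries of a genotype came from separately grown plants is not stated, and the spread behind those q-values may be technical. Transcripts of SYD itself stood at 13.1 FPKM in WT against 2.53 FPKM in syd-5, so that it fell by 2.37 on the log2 scale (q = 0.000351 in the authors' deposited table). This checks the label only in part, since its span is shared with AT2G28280 and a mutant allele can keep part of a transcript.

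Of the 9 genes, 6 were called, against 32.1% of all tested genes. COL5 and COL9 rose (2 of 9, against 14.1% of all tested genes), and COL1, CDF1, CDF2 and CDF3 fell (4 of 9, against 18.0%). CO, COL2 and CDF5 were not called. The CDF genes that were called thus all fell, whereas the called genes of the CO family went both ways. The median log2 ratio of syd-5 over WT was -0.28 over the 9 genes and -0.02 over all tested genes.

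The 9 genes fell into 2 ranges of expression. COL9, at 103 FPKM in WT, and COL5, at 50.4 FPKM, stood far above the others, and 92.2% and 83.5% of tested genes had a lower WT level. The other 7 lay between 2.57 and 7.83 FPKM in WT, in the order CDF3, CDF2, COL1, COL2, CDF1, CO and CDF5. In syd-5 the order among these 7 was CDF2, CDF3, CO, COL2, CDF5, COL1 and CDF1, between 1.85 and 5.18 FPKM. Without a spread between libraries it cannot be said which neighbours in either order differ. The ratio of the COL9 to the CDF1 level was 26.9 in WT and 80.7 in syd-5. For COL9 to CO it was 35.83 in WT and 35.85 in syd-5, and for COL9 to CDF5 40.2 and 45.6. These ratios were not tested.

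**Figure D1:**
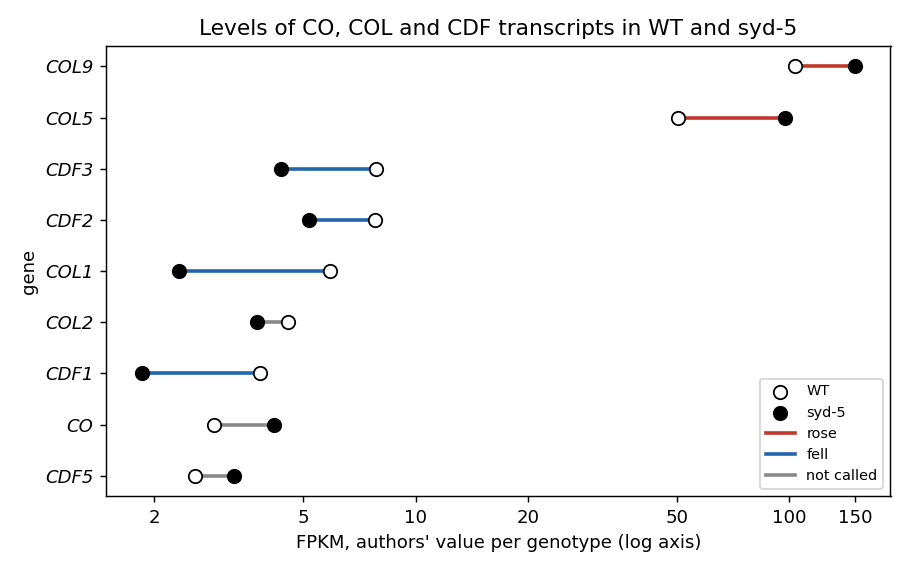
FPKM of the 9 genes in WT (open circles) and syd-5 (filled circles) on a log axis, 1 authors' value per genotype and no error available. COL5 and COL9 sit at 50.4 FPKM or more and moved to the right in syd-5, COL1, CDF1, CDF2 and CDF3 moved to the left, and grey lines mark the genes that were not called.

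CO (AT5G15840, TAIR10 chromosome 5, 5171182 to 5172758) stood at 2.88 FPKM in WT against 4.17 FPKM in syd-5. The log2 ratio was 0.53 and did not pass the threshold (q = 0.0578 in the authors' deposited table). COL9, with the same log2 ratio of 0.53 at 103 FPKM in WT, did pass. The difference between these genes was not tested. Among the 4168 tested genes with a mean of 1 to 5 FPKM over the genotypes, in which CO falls, the smallest called difference was 0.40 on the log2 scale and the median called difference 1.17. Of the tested genes with a mean from 50 to 200 FPKM, which include COL5 and COL9, 40.5% were called, against 32.7% of those from 1 to 5 FPKM. The direction also varied with level over all tested genes. Of the called genes from 50 to 200 FPKM, 60.3% rose. The share was 32.3% from 1 to 5 FPKM and 33.3% from 5 to 10 FPKM, where CDF2 and CDF3 fall. The part of level in the directions of the members was not tested.

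COL1 (AT5G15850, TAIR10 chromosome 5, listed span 5173185 to 5177897) lies next to CO, with 426 bases between the listed spans, and is one of its closest relatives. COL1 stood at 5.92 FPKM in WT against 2.32 FPKM in syd-5. It fell 2.55-fold (log2 -1.35, q = 0.000951 in the authors' deposited table), which was the largest change of the 9 genes. Only 6.38% of tested genes with a finite ratio had a lower one. In WT the COL1 level was 2.05 times that of CO, and in syd-5 the CO level was 1.79 times that of COL1, a reversal of their order that was not tested. The listed span of COL1 is shared with a gene for a long noncoding RNA, AT5G15845, at 0.699 FPKM in WT against 0.831 FPKM in syd-5, which was not called (q = 0.798 in the authors' deposited table). AT5G15845 is listed at the same 426 bases from CO, so the distance from CO to COL1 itself may be larger. No source used here says how reads were assigned where genes share a span or resemble each other, and the COL1 value is less certain for that reason.

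COL2 (AT3G02380, TAIR10 chromosome 3, 487236 to 488693), the other close relative of CO, was at 4.57 FPKM in WT against 3.77 FPKM in syd-5, a log2 ratio of -0.28 that did not pass (q = 0.349 in the authors' deposited table). CO, COL1 and COL2 together summed to 13.4 FPKM in WT against 10.3 FPKM in syd-5. A missed threshold does not show that CO or COL2 kept their level.

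The more distant relatives COL5 and COL9 were the 2 members that rose. COL5 (AT5G57660, TAIR10 chromosome 5, 23355464 to 23356989), whose overexpression is known to bring forward flowering in short days, stood at 50.4 FPKM in WT against 97.3 FPKM in syd-5. It rose 1.93-fold (log2 0.95, q = 0.000351 in the authors' deposited table), and 95.5% of tested genes had a lower log2 ratio. COL9 (AT3G07650, TAIR10 chromosome 3, 2441657 to 2444532), which is known to delay flowering by lowering CO and FT transcripts, stood at 103 FPKM in WT against 150 FPKM in syd-5. It rose 1.45-fold (log2 0.53, q = 0.00123 in the authors' deposited table). The COL9 level was 2.05 times that of COL5 in WT and 1.54 times in syd-5.

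Of the CDF genes, which encode repressors of CO and FT, 3 of 4 fell (against 18.0% of all tested genes). CDF1 (AT5G62430, TAIR10 chromosome 5, 25069093 to 25070934), the CDF member first linked to FKF1, was at 3.84 FPKM in WT against 1.85 FPKM in syd-5, a 2.07-fold fall (log2 -1.05, q = 0.00150 in the authors' deposited table). CDF3 (AT3G47500, TAIR10 chromosome 3, 17504000 to 17506058) was at 7.83 FPKM in WT against 4.38 FPKM in syd-5 and fell 1.79-fold (log2 -0.84, q = 0.000351 in the authors' deposited table). CDF2 (AT5G39660, TAIR10 chromosome 5, 15878699 to 15881044) was at 7.81 FPKM in WT against 5.18 FPKM in syd-5 and fell 1.51-fold (log2 -0.59, q = 0.00537 in the authors' deposited table). CDF2 and CDF3 thus stood at nearly the same level in WT, and CDF3 was the lower of them in syd-5, an order that was not tested.

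CDF5 (AT1G69570, TAIR10 chromosome 1, 26161528 to 26163496) was the 1 CDF member that was not called. It stood at 2.57 FPKM in WT against 3.28 FPKM in syd-5 (log2 0.35, q = 0.484 in the authors' deposited table), so that its value lay on the other side of 0 from those of CDF1, CDF2 and CDF3. Whether the CDF5 ratio differs from theirs was not tested. The table gives the same span to AT1G69572, a gene for a long noncoding RNA, which stood at 6.15 FPKM in WT against 6.37 FPKM in syd-5, not called either (q = 0.926 in the authors' deposited table). Without a stated use of strand, reads from such overlapping genes cannot be told apart with certainty. Summed over the 4 CDF genes, the level was 22.1 FPKM in WT against 14.7 FPKM in syd-5, and without CDF5 it was 19.5 and 11.4 FPKM. The CDF3 level, the highest of the CDF genes in WT, was 3.04 times the CDF5 level there. In syd-5, where CDF2 was the highest, the CDF3 level was 1.34 times the CDF5 level. These ratios were not tested.

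**Figure D2:**
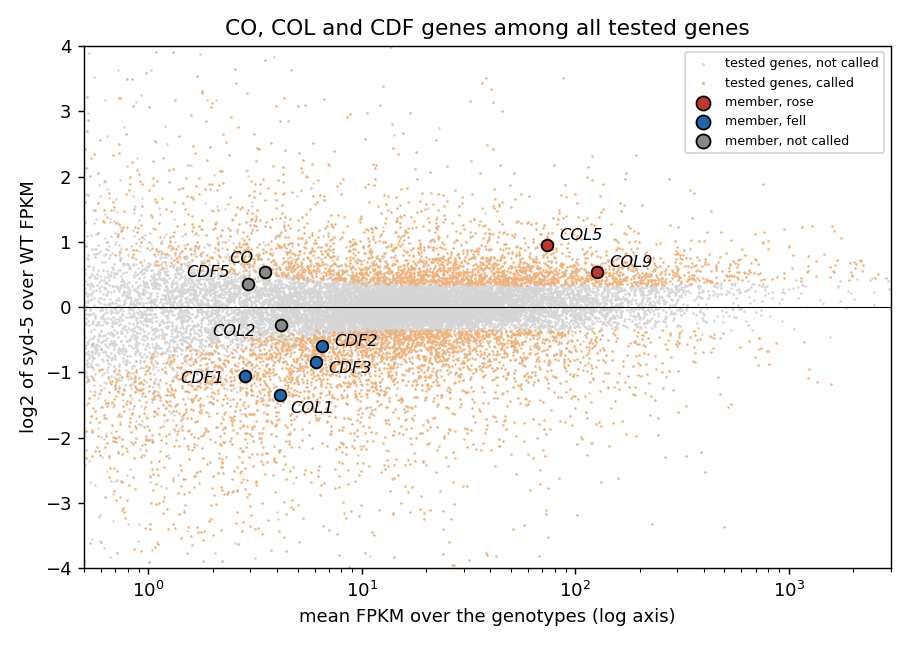
Mean FPKM over the genotypes (log axis) against the log2 ratio of syd-5 over WT for the tested genes with a value above 0 in both, shown between 0.5 and 3000 FPKM and between log2 -4 and 4. COL5 and COL9 stand to the right with ratios of 0.95 and 0.53, and CDF1, CDF2, CDF3 and COL1 lie below 0 at means under 10 FPKM.

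The wider families were read from lists named by locus ID. Of 3 further genes entered as cycling Dof relatives, AT2G34140 fell to 1.53 FPKM from 3.33 FPKM (log2 -1.13, q = 0.00455 in the authors' deposited table) and AT1G29160 fell to 2.91 FPKM from 6.16 FPKM (log2 -1.08, q = 0.0105 in the authors' deposited table), while AT1G26790 was not tested. With the 4 CDF members, 5 of 6 tested genes fell (against 18.0% of all tested genes) and none rose (against 14.1%). Their median log2 ratio was -0.94. Of the other CONSTANS-like genes, 9 of 12 were tested, of which 3 rose, 1 fell and 5 were not called, with a median of 0.20. Those that rose were BBX14, to 495 FPKM from 313 FPKM, BBX17, to 52.4 FPKM from 30.8 FPKM, and COL3, which acts in seedling light responses, to 286 FPKM from 217 FPKM. AT2G47890 fell to 33.6 FPKM from 44.5 FPKM. The calls of COL3 (q = 0.0288 in the authors' deposited table) and AT2G47890 (q = 0.0180) did not pass at 0.01. BBX9 and BBX10 were listed at 0 in both genotypes, and BBX13 occurs only in an entry joined with another gene. Over CO, its 4 COL members and this list, 5 of 14 tested genes rose (against 14.1% of all tested genes) and 2 fell (against 18.0%). The median was 0.30. The genes of this family above 100 FPKM in WT were COL3, COL4, COL9, BBX14 and BBX15. COL4 (205 and 237 FPKM) and BBX15 (164 FPKM in both genotypes) were not called.

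B-box genes without a CCT domain include small proteins that bind CO. Of 9 tested genes of the 11 listed, 2 rose, 2 fell and 5 were not called, with a median of -0.15. The shares over all tested genes were 14.1% for rose and 18.0% for fell. BBX20, which acts between light and brassinosteroid signalling, rose to 25.5 FPKM from 7.21 FPKM, and BBX22 rose to 59.0 FPKM from 43.6 FPKM. BBX32, which encodes a repressor of light responses that binds COL3, fell to 1.36 FPKM from 3.60 FPKM, and BBX21 fell to 29.3 FPKM from 38.9 FPKM (q = 0.0213 in the authors' deposited table). BBX30 and BBX31, whose small proteins bind CO and hold back flowering, lay under 1 FPKM in both genotypes, BBX30 untested and BBX31 not called (0.693 and 0.263 FPKM).

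Among genes acting on the CDF and CO proteins, 5 of 10 fell (against 18.0% of all tested genes), none rose and 5 were not called, with a median of -0.22. The count of falls was 3 with q at or under 0.01, and also 3 without the genes whose span is shared. FKF1, which marks CDF proteins for breakdown and stabilises CO, fell to 26.4 FPKM from 40.9 FPKM (log2 -0.63, q = 0.000351 in the authors' deposited table), and its partner GI was not called (16.6 and 19.99 FPKM). COP1 fell to 14.0 FPKM from 19.0 FPKM (log2 -0.44, q = 0.0103 in the authors' deposited table). SPA1 fell to 12.2 FPKM from 22.1 FPKM, SPA3 to 7.93 FPKM from 13.0 FPKM and SPA4 to 8.24 FPKM from 12.8 FPKM, with the spans of SPA3 and SPA4 shared with other genes. SPA2 (15.3 and 15.4 FPKM) was not called. Transcripts of CDF1, CDF2 and CDF3 and of FKF1, whose product removes CDF proteins, thus all fell, and no protein was measured.

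Of the 5 genes for activators of CO transcription, FBH3 fell to 13.1 FPKM from 20.02 FPKM and TCP4 to 13.8 FPKM from 19.2 FPKM, while FBH1, FBH2 and FBH4 were not called (median -0.25). The share that fell over all tested genes was 18.0%, and the share that rose was 14.1%. Of the 5 genes for NF-Y subunits that join CO at FT, 3 rose and 1 fell, with a median of 0.46. The NF-Y genes that rose had means from 50 to 200 FPKM, where 60.3% of called genes rose. NF-YB2, whose span is shared, rose to 193 FPKM from 126 FPKM, NF-YC4 rose to 84.5 FPKM from 57.1 FPKM and NF-YB3 rose to 199 FPKM from 145 FPKM. NF-YC3, whose span is also shared, fell to 17.6 FPKM from 23.3 FPKM, but not under an adjustment that took in all listed genes. FT, the target of CO, fell to 1.62 FPKM from 4.11 FPKM (log2 -1.35, q = 0.000951 in the authors' deposited table). The CO value, which was not called, stood higher in syd-5, and those of 3 CDF genes stood lower. The FT homolog TSF was not tested, at 0.160 and 0.0635 FPKM.

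**Figure D3:**
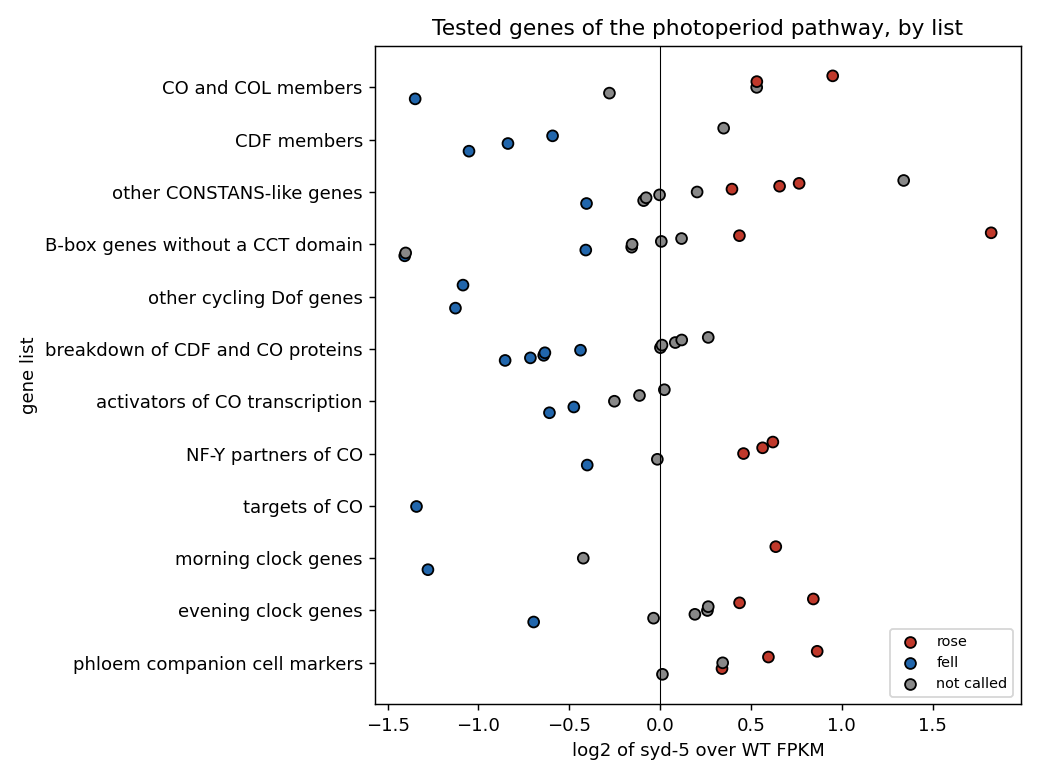
Log2 ratio of syd-5 over WT for each tested gene of the lists, coloured by the authors' call (points are spread vertically within a list for clarity). The cycling Dof genes other than CDF5 lie at -0.59 or below, while CONSTANS-like genes lie on both sides of 0.

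Genes that mark the time of day and the cells in which CO acts are given beside these values. Their counts stand against 14.1% of all tested genes that rose and 18.0% that fell. In both genotypes the morning genes CCA1, LHY and PRR9 lay under 1 FPKM. The 7 evening genes ranged from 16.6 FPKM (GI) to 452 FPKM (ELF4) in WT and from 19.99 to 279 FPKM in syd-5, and the level of the morning gene PRR7 lay within their range. Of 3 tested morning genes PRR7 rose, to 32.5 FPKM from 20.9 FPKM, and RVE8 fell, to 0.622 FPKM from 1.51 FPKM (q = 0.0122 in the authors' deposited table). Of 7 evening genes BOA rose to 64.8 FPKM from 36.1 FPKM and LUX rose to 121 FPKM from 89.7 FPKM (q = 0.0115 in the authors' deposited table). ELF4 fell to 279 FPKM from 452 FPKM, and TOC1, GI, ELF3 and PRR3 were not called. Of 5 markers of phloem companion cells, the sucrose transporter gene SUC2 rose to 180 FPKM from 98.9 FPKM and AHA3 rose to 79.3 FPKM from 52.5 FPKM. PP2-A1 rose to 175 FPKM from 138 FPKM (q = 0.0453 in the authors' deposited table). APL (log2 0.34) and FTIP1 (log2 0.01) were not called. The summed level of the 5 markers was 307 FPKM in WT against 456 FPKM in syd-5. SUC2, AHA3 and PP2-A1 had means from 50 to 200 FPKM, where 60.3% of called genes rose. In RNA from whole seedlings, a change in the number of such cells and a change in RNA per cell cannot be told apart. Of 4 leaf markers, LHCB1.1 rose to 182 FPKM from 45.7 FPKM and CAB3 rose to 572 FPKM from 257 FPKM, while RBCS1A (8061 and 9983 FPKM) and RCA were not called. Root markers summed to 10.5 FPKM in WT against 8.01 FPKM in syd-5, with COBL9, RHD6 and WER under 1 FPKM. Of 4 tested root markers PIP2;4 fell, to 2.98 FPKM from 4.93 FPKM (q = 0.0154 in the authors' deposited table), and 3 were not called. The median log2 ratio was 0.73 for the leaf, 0.34 for the companion cell and -0.48 for the root markers. No leaf marker lay near the leaf median, with RCA at 0.13, RBCS1A at 0.31, CAB3 at 1.15 and LHCB1.1 at 1.99. The part of the clock, companion cell, leaf and root genes in the values of CO, COL and CDF genes was not tested.

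The nearest listed genes on either side of the 9 members were also read. Of 18 such genes that were not members themselves, 1 rose, 1 fell, 10 were not called and 6 were not tested. Over all tested genes, 14.1% rose and 18.0% fell. AT5G39670, 2134 bases from CDF2, fell 9.17-fold, to 1.90 FPKM from 17.4 FPKM (q = 0.000351 in the authors' deposited table). EMB2744, which the table gives the same span as AT5G39670, was not called (1.103 and 1.26 FPKM). AT1G69580, 8446 bases from CDF5, rose to 12.5 FPKM from 9.27 FPKM (q = 0.0432 in the authors' deposited table). None of the tested nearest neighbours of COL2, COL5, COL9, CDF1 and CDF3 was called.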

How the data were processed

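Per the submitters' processing notes, Bowtie2, TopHat2 (version 2.0.4), bedtools and the build TAIR10 were used, with no role given for each. What program made the table, which annotation it used and whether it used strand are not given in the sources used here. The authors deposited 1 value per gene and genotype, read here as FPKM from the layout, a unit that the header does not name. The authors' p-values and q-values were used as deposited. Benjamini-Hochberg adjustment of the deposited p-values over the 19868 tested genes gave those q-values back (to within 5.22e-07). The lowest p, 5e-05, occurs for 2831 genes, and a q of 0.000351 therefore does not rank genes.

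Ratios are the syd-5 value divided by the WT value, on the log2 scale and without a pseudocount, computed with pandas 2.3.3 in Python 3.11.15. No test was made on single genes and none on lists. The functions for adjustment and span overlap were tested on simulated data. Coordinates are those of the table, counted from 1. A listed span can cover several genes, and 3870 genes share one. Symbols came from a RefSeq table (TAIR10.1), which names 8 of the 9 members, the exception being CDF5. The 9 other lists hold 59 genes. Members and lists were chosen with earlier results of these data known. The text names all members, SYD, up to 6 called genes of each list by q, the genes FT, TSF, GI, FKF1 and COP1, and called neighbours. Further genes were named after their values were seen. The planned description of promoter and protein sequences was not made. The alternatives were a stricter q, other sets of genes in the adjustment, a pseudocount and other scalings.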

Additional observations from a re-analysis of the deposited data

How the results depend on the processing

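For the 9 members, q of at most 0.01, an adjustment over all 33201 listed genes, a mean of at least 1 FPKM, and leaving out genes with a shared span (which leaves no value for COL1, CDF5 and SYD) kept each gene on its side of the threshold in 34 of 34 values, and SYD was called in each that included it. Adding 1 FPKM to both values, division by the column sums, and centring on the median of tested genes kept the direction of the log2 ratio in 27 of 27 values. No new test went with these, and no median of the members or of the 9 other lists changed sign. The cell marker lists were not put through the alternatives. Division by the sums moves every log2 ratio by -0.13, and centring takes off a median of -0.02. Both are smaller in size than the smallest member ratio, that of COL2 (-0.28), and adding 1 FPKM cannot turn a ratio around. The direction of the members was therefore fixed in advance under these 3 settings. Of the 9 other lists, the median smallest in size was that of the B-box genes without a CCT domain (-0.15). It also exceeds both shifts in size, so under both scalings the signs of the list medians were fixed in advance too. Likewise, the stricter q and the adjustment over all listed genes could not add a call for CO, COL2 or CDF5. In the other lists, 10 counts moved by more than 1.5 times. With q of at most 0.01, which called 4498 of all tested genes in place of 6380, 9 called list genes were lost: COL3, AT2G47890, BBX21, AT1G29160, COP1, SPA3, NF-YC3, RVE8 and LUX. The adjustment over all listed genes ended 1 call, that of NF-YC3 (adjusted p = 0.0755 from the p-values of the authors' table). Leaving out shared spans removed COL1, SPA3, SPA4, NF-YB2 and NF-YC3 from the called genes. No paired analysis was possible because the table gives no value per library, and for the same reason no replicate could be left out and depth is unknown.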
